A study of Mus musculus with 2 samples.

Results

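Splicing factor genes were examined in a list of Usp16 chromatin immunoprecipitation (ChIP) peaks from mouse bone marrow. The members are the protein-coding genes of the RefSeq GRCm38.p6 gene table whose symbol starts with Snrp, Sf3a, Sf3b or Hnrnp, or with Lsm, Prpf or Srsf followed by a digit. There were 79 such genes among 21887 protein-coding genes on the assembled chromosomes. By symbol they fell into 12 snRNP core genes (Snrp), 9 SF3 genes, 13 LSM genes, 13 PRPF genes, 11 SR genes (Srsf) and 21 hnRNP genes. A symbol says nothing of function by itself, and Hnrnpa1l2-ps2, whose symbol carries the suffix of a pseudogene, was counted because the table lists it as protein-coding.

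The cells came from bone marrow and carried c-Kit and Sca-1 at their surface; they are labelled as blood stem and progenitor cells. The donors were Mx1 Cre:Usp16loxp/loxp mice, which carry an inducible Cre recombinase and Usp16 alleles flanked by loxP sites. The labels do not give the age of the mice, whether Cre had been induced or whether animals were pooled. One library was made with anti-Usp16 and 1 with IgG from cells of the same genotype, and the only values analysed here are the 5079 peaks listed for anti-Usp16, of which 5046 lay on the assembled chromosomes. No replicate stands beside any value, the read depth is unknown, and a list of binding sites holds no expression values with which to check the labelled cell type.

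Usp16 removes ubiquitin from histone H2A, a mark laid down by Polycomb repressive complex 1. Splicing is carried out by the spliceosome, which is built from small nuclear RNAs wrapped in protein particles (snRNPs). Most of these RNAs sit in a ring of Sm proteins, and U6 RNA sits in a ring of the related LSM proteins. The SF3A and SF3B complexes belong to the U2 particle and hold the branch site of the intron. PRPF proteins include scaffolds and remodelling factors of the later particles. SR proteins and hnRNP proteins bind the transcript itself and help to decide which splice sites are used.

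A gene-end peak is one that shares at least 1 bp with the stretch reaching 1 kb out from, and 1 kb into, the gene at either annotated end. Of the 79 splicing factor genes, 33 had a gene-end peak (41.8%, exact 95% interval 30.8 to 53.4%), and over all protein-coding genes the share was 13.9% (3033 of 21887). The 33 genes had 33 different peaks, 1 each, and none of these peaks overlapped a tRNA, snRNA or snoRNA gene. No test was made of the difference, because the genes come from 1 peak list and were chosen with earlier results of this list known. The intervals cover counting error over genes only. With peaks at or above the median score of the list alone, 21 of the 79 had one, beside 8.03% of all protein-coding genes.

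**Figure D1:**
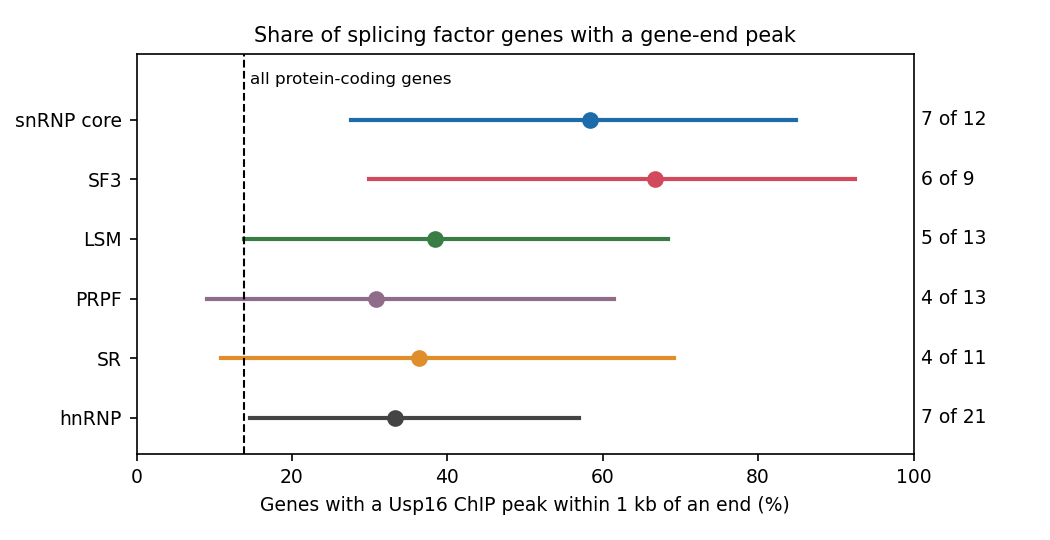
Share of the genes in each group with a Usp16 ChIP peak within 1 kb of an annotated end, in percent. Points are shares, lines are exact 95% intervals, the numbers on the right are genes with a peak out of all genes of the group, and the dashed line marks all protein-coding genes (13.9%); all 6 points lie to the right of it, and the 6 intervals overlap one another.

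The SF3 and snRNP core groups had the highest shares. In the SF3 group 6 of 9 genes carried a peak (66.7%, interval 29.9 to 92.5%), and in the snRNP core group 7 of 12 did (58.3%, 27.7 to 84.8%). The LSM group followed with 5 of 13 (38.5%, 13.9 to 68.4%) and the SR group with 4 of 11 (36.4%, 10.9 to 69.2%). The hnRNP group had 7 of 21 (33.3%, 14.6 to 57.0%) and the PRPF group 4 of 13 (30.8%, 9.09 to 61.4%). All 6 shares lay above the share over all protein-coding genes. The intervals of the SR and PRPF groups extended below it, however, and that of the LSM group began at it. With peaks at or above the median score of the list alone, the PRPF group had 1 of 13. That was not above the 8.03% of all protein-coding genes at that setting. The intervals of all groups overlapped, so the order of the groups was not resolved at these numbers of genes.

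Wherever the orientation of the gene could be read, the peak within 1 kb of an end lay at the start of transcription. Most protein-coding genes with a peak also had it there. RefSeq promoter entries gave the strand and at least 1 start site for 68 of the 79 members and for 17492 of all protein-coding genes. Strand was not in the table used for 5 members with a peak, among them Snrpd1, Sf3b4, Lsm4 and Prpf18. Of the 28 members with a peak and a known strand, all 28 had it at the start and none at the far end (100%, exact 95% interval 87.7 to 100%). With a window of 5 kb, 90.3% of 31 such members had one at the start. Over all protein-coding genes with a peak and a strand, 2241 of 2529 had it at the start alone, 181 at the far end alone and 107 at both, so that 92.8% had one at the start (91.8 to 93.8%). In genes of more than 10 kb, where start and far end cannot be mixed up, the peak was at the start in 17 of 17 members and in 94.2% of all 1752 genes with a peak.

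The peaks sat on the start site itself. All 28 peaks covered a listed start site. Of the 2483 protein-coding genes with a peak within 1 kb of a listed start, 89.5% had one that covered it. A difference of that size is not resolved with 28 genes. The midpoint was within 250 bp of the start in 21 of the 28 members and in 74.2% of the 2483 genes. Members had their midpoint downstream of the start in 13 cases and upstream in 15, with a median of -11 bp (quartiles -131 and 159 bp). Over all protein-coding genes with such a peak the median was -59.5 bp (quartiles -188 and 52.5 bp). The member closest to its start was Sf3b3, at -4 bp, and the farthest was Hnrnpul1, at -717 bp.

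**Figure D2:**
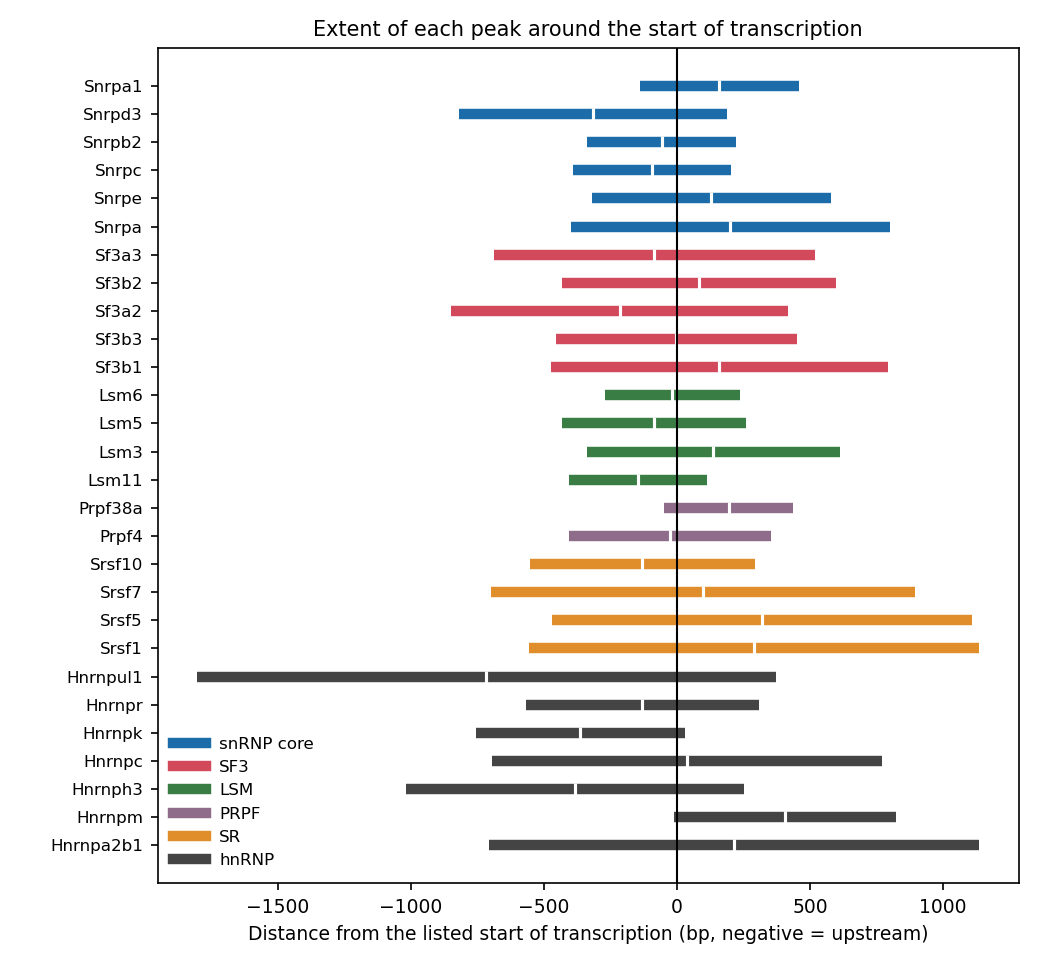
Extent of the peak around the nearest listed start of transcription for the 28 members with a known strand, in bp, with upstream to the left. Bars run from the first to the last base of the peak, white ticks mark midpoints and colours mark the 6 groups; every bar crosses the start site, and the bars of Hnrnpm and Hnrnpk only just reach it.

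Sequence from these starts is shown for the highest-scoring member of 5 of the groups, as the stretch from 170 bases before the start site to 30 bases from it on. These are Snrpa1 (chr7:66060166-66060365, plus strand), Sf3a3 (chr4:124714691-124714890, plus strand), Lsm6 (chr8:78821123-78821322, minus strand), Srsf10 (chr4:135855901-135856100, plus strand) and Hnrnpul1 (chr7:25754730-25754929, minus strand), all from RefSeq on GRCm38.p6. No PRPF promoter is shown. Hnrnpa0 (chr13:58128527-58128726, minus strand), a gene without a peak, is shown beside them because its promoter held the most CG dinucleotides of any member; it was picked after its values were seen. Capitals mark matches, on either strand, to 9 short words of common promoter elements, listed further on.
Snrpa1: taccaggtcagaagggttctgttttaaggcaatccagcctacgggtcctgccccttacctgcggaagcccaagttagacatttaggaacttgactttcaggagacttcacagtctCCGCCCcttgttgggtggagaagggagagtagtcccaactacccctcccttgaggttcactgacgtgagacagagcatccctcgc
Sf3a3: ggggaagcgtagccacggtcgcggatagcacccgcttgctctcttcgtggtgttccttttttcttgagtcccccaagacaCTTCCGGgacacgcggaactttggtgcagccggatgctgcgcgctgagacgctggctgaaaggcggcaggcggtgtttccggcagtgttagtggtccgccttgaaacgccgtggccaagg
Lsm6: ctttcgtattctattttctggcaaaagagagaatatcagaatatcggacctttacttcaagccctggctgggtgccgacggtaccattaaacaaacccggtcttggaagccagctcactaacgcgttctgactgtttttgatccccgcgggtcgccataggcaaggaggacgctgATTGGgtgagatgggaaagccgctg
Srsf10: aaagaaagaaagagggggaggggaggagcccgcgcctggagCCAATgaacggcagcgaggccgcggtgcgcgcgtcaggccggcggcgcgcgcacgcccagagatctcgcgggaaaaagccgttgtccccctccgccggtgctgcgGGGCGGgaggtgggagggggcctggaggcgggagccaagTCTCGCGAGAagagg
Hnrnpul1: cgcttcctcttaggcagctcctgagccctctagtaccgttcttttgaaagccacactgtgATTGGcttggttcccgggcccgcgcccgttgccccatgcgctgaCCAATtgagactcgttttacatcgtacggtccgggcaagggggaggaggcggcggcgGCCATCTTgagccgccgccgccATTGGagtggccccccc
Hnrnpa0: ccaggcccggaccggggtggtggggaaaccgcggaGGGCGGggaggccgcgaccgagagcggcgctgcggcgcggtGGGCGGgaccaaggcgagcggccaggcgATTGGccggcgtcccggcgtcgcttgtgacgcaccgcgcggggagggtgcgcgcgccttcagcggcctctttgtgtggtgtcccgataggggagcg

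The printed stretches differ in their content of CG, the dinucleotide at which mammalian DNA is methylated. The Snrpa1 stretch held 5 CG dinucleotides and the Lsm6 stretch 12. The stretches of Hnrnpul1, Sf3a3 and Srsf10 held 17, 19 and 25, and that of Hnrnpa0 held 32. The highest-scoring peak of the whole set thus lay over the stretch with the fewest CG dinucleotides of those shown.

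The snRNP core group holds the Sm proteins and the proteins particular to the U1 and U2 particles; this division, like that of the LSM genes, follows textbook membership and was made after the peaks had been seen. All 4 of the latter carried a peak, beside 13.9% of all protein-coding genes. These 4 genes are too few to set them apart from the other members. Snrpa1, which encodes the A′ protein of the U2 particle, had the highest score of all members, 154, in a peak of 599 bp (chromosome 7, 66060196 to 66060794). Scores are those MACS gave; they start at 50 in this list and have a median of 69.9 over the 5046 peaks. Snrpb2, which encodes its partner B″, had a peak of score 124 and 560 bp (chromosome 2, 143062731 to 143063290). The U1 particle genes scored lower. Snrpc, for U1-C, had 91.3 in a peak of 594 bp (chromosome 17, 27839696 to 27840289). Snrpa, for U1-A, had 59.0 in a peak of 1201 bp (chromosome 7, 27195471 to 27196671).

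Of the 7 genes of the Sm ring, 3 carried a peak. Snrpd3 had a score of 132 over 1011 bp (chromosome 10, 75517221 to 75518231) and Snrpd1 one of 104 over 615 bp (chromosome 18, 10617424 to 10618038). Snrpe had 60.1 over 899 bp (chromosome 1, 133609703 to 133610601). No peak was listed at the ends of the other ring genes, and their nearest peak midpoints were far off. These lay 17.9 kb away for Snrpd2, 25.5 kb for Snrpg, 95.3 kb for Snrpb and 129.8 kb for Snrpf. Snrpn, which encodes a form of SmB made mainly in neurons and lies in an imprinted locus, had its nearest midpoint 278 kb away. The Sm proteins assemble into 1 ring in the cell, and their genes were split 3 to 4 in this list. That split was close to the 41.8% over all members, beside 13.9% of all protein-coding genes. These counts are too small to set the ring apart from the other members.

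In the SF3 group the peaks were uniform in width and lay at both complexes. SF3A had 2 of 3 genes with a peak. Sf3a3 scored 138 over 1209 bp (chromosome 4, 124714171 to 124715379), and Sf3a2 scored 78.0 over 1268 bp (chromosome 10, 80797885 to 80799152). Sf3a1 had none, with the nearest midpoint 63.5 kb away. SF3B had 4 of 6. Sf3b2 scored 96.0 over 1033 bp (chromosome 19, 5294857 to 5295889) and Sf3b4 80.1 over 1023 bp (chromosome 3, 96172007 to 96173029). The large scaffold gene Sf3b3 had a score of 77.4 over 907 bp (chromosome 8, 110846354 to 110847260). Sf3b1, the SF3B scaffold that is often mutated in human myelodysplastic syndromes, had 69.8, close to the median of the list, over 1266 bp (chromosome 1, 55026687 to 55027952). The small subunit genes Sf3b5 and Sf3b6 had no gene-end peak, with the nearest midpoints 11.2 and 48.5 kb away. All 6 SF3 widths lay between 907 and 1268 bp, a narrower range than in any other group.

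Of the LSM genes, those of the LSM2 to LSM8 ring carried 4 of the 5 peaks. Lsm6 scored 135 over 509 bp (chromosome 8, 78820916 to 78821424), Lsm5 scored 119 over 693 bp (chromosome 6, 56704440 to 56705132) and Lsm3 scored 113 over 952 bp (chromosome 6, 91515695 to 91516646). Lsm4 had a lower score of 67.6 over a wider peak of 1585 bp (chromosome 8, 70672869 to 70674453). Lsm2, another ring gene, had none, with the nearest midpoint 9.71 kb away. The ring, which binds U6 RNA, therefore had 4 of 7 genes with a peak and the genes outside it 1 of 6. The share over all protein-coding genes was 13.9%. These counts are too small to set the ring apart from the other LSM genes. The peak outside the ring was at Lsm11, which encodes a protein of the U7 particle that processes histone transcripts. It had a score of 78.1 over 518 bp (chromosome 11, 45944823 to 45945340). Its partner in the U7 particle, Lsm10, had none, and the nearest midpoint was 103.6 kb away. Lsm1, whose product replaces LSM8 in the cytoplasmic ring that acts in mRNA decay, had its nearest midpoint 30.7 kb away. Lsm12 had a peak midpoint 3.42 kb away, and those of Lsm14a and Lsm14b were 82.5 and 222 kb away.

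The PRPF group held the lowest scores, and 2 of its 4 peaks stood at the floor of the list. Prpf18, for a second-step factor, scored 65.3 over 815 bp (chromosome 2, 4651700 to 4652514). Prpf38a scored 50.2 over 484 bp (chromosome 4, 108578901 to 108579384), and Prpf4, for a protein of the U4/U6 particle, scored 50.05 over 760 bp (chromosome 4, 62408376 to 62409135). Only 0.694% of the peaks in the list scored at or below the Prpf38a peak and 0.218% at or below the Prpf4 peak, so both calls rest on the score at which the list begins. Among the PRPF genes without a gene-end peak, the nearest midpoints were 1.46 kb away for Prpf19, 10.7 kb for Prpf3, 61.6 kb for Prpf31 and 62.3 kb for Prpf38b. They were 70.4 kb away for Prpf39 and 99.7 kb for Prpf40b. Of the paralogues Prpf38a and Prpf38b, only the first had a gene-end peak.

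The SR peaks were wide. Srsf10 had the highest score of the group, 109.6, in its narrowest peak, 845 bp (chromosome 4, 135855518 to 135856362). Srsf7 scored 82.0 over 1595 bp (chromosome 17, 80206412 to 80208006), and Srsf5 scored 72.9 over 1581 bp (chromosome 12, 80945027 to 80946607). Srsf1, the founding member of the family, scored 58.1 over 1691 bp (chromosome 11, 88046818 to 88048508). The Srsf5 peak also reached an end of the lncRNA gene Gm20337. No gene-end peak was listed for the other 7 SR genes. Srsf2, which like Sf3b1 is mutated in human myelodysplastic syndromes, had its nearest peak midpoint 6.41 kb away. Those of Srsf11, Srsf12, Srsf3, Srsf6 and Srsf4 were 63.7, 163, 225, 348 and 368 kb away.

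The hnRNP peaks scored low and were mostly wide. Hnrnpul1 led with 91.5 in the widest peak of all members, 2179 bp (chromosome 7, 25754387 to 25756565). Hnrnpr scored 78.1 over 877 bp (chromosome 4, 136310373 to 136311249), and Hnrnpk scored 77.2 over 788 bp (chromosome 13, 58402087 to 58402874). Hnrnpc, for a core protein of the particle that packages nascent transcripts, scored 60.8 over 1469 bp (chromosome 14, 52103250 to 52104718). The remaining 3 peaks lay close to the floor of the list. Hnrnph3 had 53.7 over 1270 bp (chromosome 10, 63023599 to 63024868) and Hnrnpm 53.5 over 836 bp (chromosome 17, 33684636 to 33685471). Hnrnpa2b1 had 53.3 over 1845 bp (chromosome 6, 51468709 to 51470553). Its relatives Hnrnpa0, Hnrnpa1 and Hnrnpa3, which encode proteins of the same A/B family, had no gene-end peak, and their nearest midpoints were 67.4, 26.1 and 70.4 kb away. The nearest midpoints to Hnrnpab, Hnrnpd and Hnrnpa1l2-ps2 were 5.73, 433 and 1057 kb away. Near-identical copies exist for some of these genes, Hnrnpa1 among them, and how reads with several matches were treated is not given in the sources used here.

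**Figure D3:**
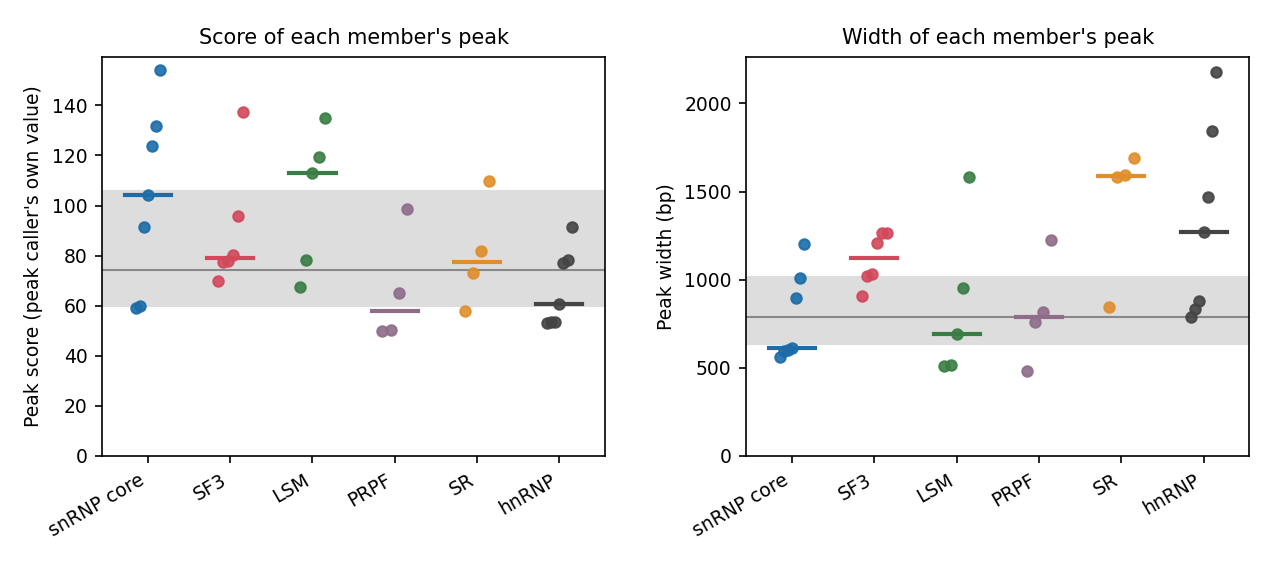
Score (left) and width in bp (right) of the peak of each of the 33 members, by group. Points are peaks, short bars are group medians, and the grey line and band are the median and quartiles of the 2466 peaks at ends of protein-coding genes; the LSM and snRNP core medians for score lie above the grey line and the PRPF and hnRNP medians below it, while for width the SR, hnRNP and SF3 medians lie above the band.

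The groups with the highest median scores, LSM and snRNP core, had the smallest median widths. The PRPF peaks had the lowest median score. Their median width, 787.5 bp, was close to the 788.5 bp over the ends of all protein-coding genes. The median score was 113 in the LSM group, 104 in the snRNP core group, 79.0 in the SF3 group and 77.4 in the SR group. It was 60.8 in the hnRNP group and 57.7 in the PRPF group. The ranges overlapped: the highest hnRNP score, 91.5, exceeded the lowest LSM score, 67.6, and the lowest snRNP core score, 59.0. Over all 33 peaks the median was 78.1 (quartiles 60.8 and 104). The 2466 peaks at the ends of any protein-coding gene had a median of 74.4 (quartiles 59.9 and 106), so the scores of the members lay in the usual range. The Snrpa1 peak alone stood in the top 10% of the list.

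Median widths were 615 bp in the snRNP core group, 693 bp in the LSM group and 787.5 bp in the PRPF group. They were 1121 bp in the SF3 group, 1270 bp in the hnRNP group and 1588 bp in the SR group. Over the 33 peaks the median was 952 bp (quartiles 760 and 1268 bp), against 788.5 bp (635 and 1014 bp) at the ends of all protein-coding genes. Peaks wider than 1 kb made up 16 of 33 member peaks (48.5%) and 26.1% of the 2466. They were 5 of 6 in the SF3 group, 3 of 4 in the SR group and 4 of 7 in the hnRNP group, but 2 of 7 in the snRNP core group and 1 of 5 in the LSM group. Across the 33 member peaks, which come from 1 library, score and width had a Spearman correlation of -0.26, and across the 2466 peaks one of 0.12.

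Many of the peaks reached an end of more than 1 gene, at a share not resolved from that over all genes with a peak. In 16 of the 33 members the peak also reached an end of another protein-coding gene (48.5%, exact 95% interval 30.8 to 66.5%). It did so for 1224 of the 3033 protein-coding genes with a peak (40.4%), a share inside that interval. With start sites alone the count moved to 9 of 28 members, and no share over all genes is given for that setting. Within the 1 kb windows at both ends, sharing held for 6 of the 7 hnRNP peaks, 3 of 6 in the SF3 group, 2 of 7 in the snRNP core group, 2 of 5 in the LSM group, 2 of 4 in the PRPF group and 1 of 4 in the SR group. A peak at such a place cannot be assigned to either gene from the list alone. For 14 of the 16 neighbours the strand was listed, and 11 were reached at the 5′ end of the gene record and 3 at the far end.

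The shared peaks included several gene pairs that diverge from 1 promoter region. The Prpf4 peak covered the start of Cdc26, a subunit gene of the anaphase-promoting complex, 158 bp from the start of Prpf4 on the other strand. The Sf3b3 peak covered the start of Cog4, a Golgi tethering gene, 203 bp away, and the Hnrnpk peak covered that of Rmi1, a gene of the BLM helicase complex, 131 bp away. The starts of Snrpa and BC024978 lay 21 bp apart, those of Snrpd3 and Gucd1 70 bp, those of Sf3a2 and Plekhj1 109 bp and those of Hnrnph3 and Pbld2 663 bp, and each pair shared a peak that covered both starts. Hnrnpa2b1 and Cbx3, the gene of the heterochromatin protein HP1γ, had starts 722 bp apart and shared 1 peak, which covered the start of Hnrnpa2b1 but not the listed start of Cbx3.

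Other neighbours were reached in other ways. The Srsf7 peak reached the 5′ end of the gene record of Gemin6, a gene of the SMN complex that loads Sm rings onto snRNAs, but the listed start of Gemin6 lay 17146 bp from that of Srsf7. The Hnrnpc peak likewise reached the 5′ end of the record of Rpgrip1, whose listed start lay 6882 bp from that of Hnrnpc. The Hnrnpul1 peak reached the far end of Axl, a receptor tyrosine kinase gene on the same strand, the Lsm11 peak the far end of Thg1l and the Sf3b4 peak the far end of Mtmr11. The Lsm3 peak also lay at an end of the DNA repair gene Xpc, and the Hnrnpm peak at an end of the ubiquitin ligase gene Marchf2.

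Genes that face another start carried peaks more often over the whole genome, and less clearly so among the members. With a listed start within 1 kb of a coding start on the opposite strand, 38.4% of 1681 coding genes had a peak at an end. The share was 11.9% of the 15811 without such a start. A peak is counted for every gene whose end it reaches, so genes with a facing start can be counted through a neighbour's peak. Of 19 members with such a neighbour 9 carried a peak (47.4%), and of 49 without one 19 did (38.8%). The share among members without a facing start was thus above the share over all genes of that kind. Members with a facing start and no gene-end peak included the pairs Srsf2 and Mfsd11, Hnrnpa1 and Cbx5, and Prpf31 and Tfpt. The part of gene arrangement in the members' share was not tested.

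Gene length did not set the members with a peak far apart from the rest. The 33 members with a peak had a median length of 14157 bp (3637 to 56737 bp) and the 46 without one a median of 10992.5 bp (734 to 467683 bp). Over all protein-coding genes the medians were 18068 bp with a peak and 17015.5 bp without.

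The promoters of the members were rich in CG. RefSeq promoter sequences of 300 bases, from 250 before to 50 after a start, were available for 68 members, 28 of them with a peak. The median number of CG dinucleotides was 24 in members with a peak (7 to 41) and 26 in members without one (2 to 52). Over all protein-coding genes the median was 21 in the 2529 with a peak and 10 in the 14963 without. By the median, members therefore resembled the genes with a peak whether or not they carried one. The upper quartile differed, at 40 in members without a peak, 28.75 in members with one and 27 in all protein-coding genes with one. The lowest count among members with a peak, 7, was at Snrpa1, and the highest, 41, at Sf3a2.

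**Figure D4:**
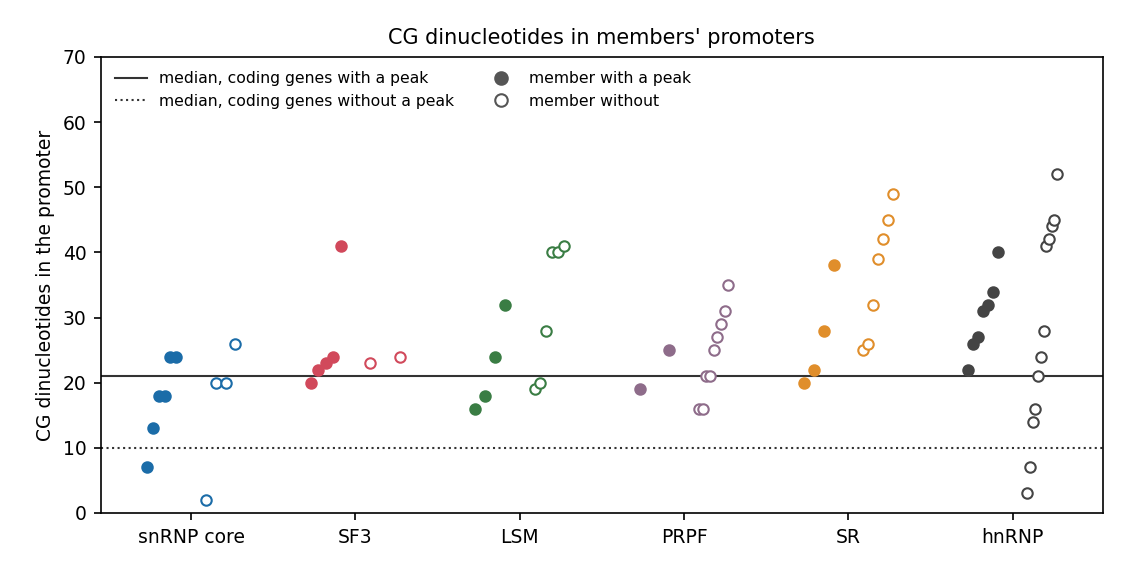
Number of CG dinucleotides in the 300-base promoter of each of the 68 members with a listed promoter, by group. Filled points are members with a gene-end peak and open points members without, the solid line is the median of all protein-coding genes with a peak (21) and the dotted line that of genes without (10); the open points of the SR group start at 25 and reach 49, and the filled ones run from 20 to 38.

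When promoters were divided by their CG count, in classes chosen after seeing the data, peaks were most frequent in the middle classes. Over all protein-coding genes the share with a gene-end peak was 3.66% at 0 to 9 CG, 21.5% at 10 to 19, 27.2% at 20 to 29, 20.5% at 30 to 39 and 11.0% at 40 to 65. Among members it was 1 of 4, 6 of 11, 14 of 31, 5 of 9 and 2 of 13 in the same classes. The share of members was above that of all genes in each of these classes. At 0 to 9 CG this rested on 1 member with a peak, and at 40 to 65 CG the shares were 15.4% and 11.0%. Both shares were lower at 40 CG and more than in the 3 classes before. Another division used classes of 0 to 4, 5 to 13, 14 to 24 and 25 to 65 CG. Members with a peak were 0 of 2, 2 of 3, 15 of 29 and 11 of 34 there. The shares of all protein-coding genes were 1.90%, 11.1%, 25.3% and 21.3%, so members were not above them in the lowest class. The 2 members with a peak at 40 or more were Sf3a2 and Hnrnpk. The 11 without one were Lsm7, Lsm14a, Lsm14b, Srsf3, Srsf4, Srsf6, Hnrnpa0, Hnrnpa3, Hnrnpd, Hnrnpdl and Hnrnpu. The part of CG content in the members' share was not tested.

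Both strands of these promoters were searched for 9 short words. The basal promoter words were TATAAA, a core form of the box that TBP binds, CCAAT, which the factor NF-Y reads, and GGGCGG, which Sp1 reads. The words of other factors were CCGGAAG for the ETS family, GCATGCGC for part of the NRF1 motif, AAGATGGC for part of the YY1 motif, CACGTG for the E-box and TGACGTCA for the cAMP response element. The word TCTCGCGA, which is known from promoters of widely expressed genes, was the last. CCGGAAG occurred in 10 of 28 promoters of members with a peak (35.7%), in 10 of 40 without and in 11.9% of all 17492 protein-coding promoters. GGGCGG occurred in 18 of 28 (64.3%), 29 of 40 (72.5%) and 46.3% of all. CCAAT occurred in 13 of 28 (46.4%), 21 of 40 (52.5%) and 39.2% of all. TATAAA was held by 3 of 28 (10.7%), 4 of 40 and 13.3% of all. For these 4 words the members with and without a peak lay on the same side of the share over all promoters.

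The other 5 words each occurred in 8 or fewer of the 68 members. TCTCGCGA was found in 2 of 28 and 3 of 40 members and in 1.53% of all promoters. GCATGCGC and AAGATGGC were each found in 1 of 28 and 3 of 40, against 3.61% and 3.21% of all. CACGTG was found in 2 of 28 and 6 of 40, against 7.91% of all, and TGACGTCA in 1 of 28 and 1 of 40, against 2.33%. In the printed stretches, with positions counted from 0 at the start site, Sf3a3 held CCGGAAG on the opposite strand at -90. In Srsf10, TCTCGCGA began at 15 on the gene's strand and at 17 on the other, so that the 2 matches overlap. Hnrnpul1 held AAGATGGC on the opposite strand at -9. A match describes letters only and does not show that a factor binds there.

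Splicing genes outside these symbol families carried peaks at a similar rate. A list of 135 other spliceosome and splicing genes, all found in the gene table, had 61 with a gene-end peak (45.2%, exact 95% interval 36.6 to 54.0%). The share over all protein-coding genes was 13.9%. The lists are not fully separate, because the peak counted for Gemin6 is the Srsf7 peak. Within the list, Dhx38 and Txnl4b share a peak. Proteins of the U particles and the tri-snRNP had 14 of 28, branch site and 3′ splice site factors 7 of 16, and factors of the catalytic steps 14 of 30. The SMN complex and its assembly partners had 6 of 13, SR-related proteins, kinases and exon junction proteins 10 of 22, and other regulators 10 of 26. The 61 peaks had a median score of 79.1 (quartiles 65.6 and 121), close to that of the member peaks.

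Some of these genes scored higher than any member. Rbm39, for an SR-related coactivator, had a peak of score 326, Wdr77, the partner of the Sm methylase Prmt5, had 273, and Rbm25 had 221. Snrnp200, the helicase that unwinds U4 from U6, had 216. Prmt5 itself had 145, Snrnp70, for the U1 protein that binds the particle's RNA directly, 84.0, and Phf5a, a further SF3B subunit, 79.1. No gene-end peak was listed for U2af1 and U2af2, whose products read the 3′ splice site, for Smn1, or for Ptbp1. With the U1 protein gene Snrnp70 beside Snrpa and Snrpc, each of these 3 genes of U1-specific proteins carried a peak. They were put together after the peaks had been seen, and the Snrpa score, 59.0, lay below the list median of 69.9. Beside 13.9% of all protein-coding genes and 45.2% of the list of other splicing genes, 3 genes are too few to set them apart.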

How the data were processed

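The deposited file lists peaks of the anti-Usp16 ChIP (1 library, with 1 IgG library in the study); per the file headers the authors called them with MACS in Galaxy. Per the submitters' processing notes, Bowtie, Picard and the build mm10 were used; versions, MACS settings and the use of the IgG library are not known from the labels or the file. Chromatin had been sheared to about 200 bp, per the labels' protocols. The deposited score of each peak is the authors' value from MACS, used within this list only; no peak scores under 50, so a missing peak does not show absent binding.

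Peak starts were made 1-based. Genes came from the RefSeq table of GRCm38.p6, and strand, start sites and 300-base promoters from RefSeq promoter entries; for CG counts and words, 1 promoter a gene was taken, the one nearest the gene record's 5′ end. Positions relative to the start use the nearest listed start. Intervals are exact Clopper-Pearson (scipy 1.17.1). No enrichment test was run. The members and lists were chosen with earlier results of these data known. The rule for names took every member with a peak (1 is counted but not reported by name here). Of those without, it took up to 6 per group in alphabetical order. Lsm7, Prpf8, Hnrnpdl, Hnrnpl, Hnrnpu, the other splicing genes and genes that share peaks were named beside these, after their values were seen. The gene-end assignment was checked on simulated peaks. Alternatives varied the score minimum, window, overlap rule, chromosomes, small RNA genes, merging and the use of start sites alone.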

Additional observations from a re-analysis of the deposited data

How the results depend on the processing

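With only the peaks at or above the median score, 21 of the 79 members carried a gene-end peak, where the share over all protein-coding genes was 8.03%. The PRPF group had 1 of 13, which was not above that share, and the hnRNP group had 3 of 21. The list of other splicing genes had 39 of 135, and 10 members shared their peak with another coding gene. This setting removes peaks by its construction. With start sites alone, for which fewer genes are listed, 28 of 68 members had a peak, beside 14.2% of 17492 protein-coding genes. The PRPF group had 2 of 11 there, a count too small to set it apart from that share. At this setting 9 of 28 members shared their peak. The share over all protein-coding genes was 13.0% with a window of 500 bp, 18.3% with a window of 5 kb, 13.1% with the midpoint or at least 50% of the peak inside the window, and 14.5% without chromosomes X and Y. The member count was 33 with the 500 bp window, 37 with 5 kb and 32 with the midpoint rule, which dropped Srsf1. Of 111 combinations of result and setting, 98 stayed within 1.5 times the count, or within the 95% interval of the share or median, and 13 moved. No paired analysis was possible because there is 1 library per antibody and 1 peak list.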

Other observations

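Among the members without a gene-end peak, Prpf8 and Prpf19 came closest to having one. The nearest peak to Prpf8, which encodes the central scaffold of the spliceosome, began 1057 bp beyond the far end of the gene, had a score of 156.6 and lay at an end of Rilp. The Prpf19 peak, of score 54.5, lay inside the gene, 1225 bp from its far end, and was the only peak found inside any of the 46 members without a gene-end peak. Hnrnpl and Lsm12 followed, with peaks 2541 and 3121 bp from an end that lay at ends of Ech1 and G6pc3. At the other side of the threshold, the peaks of Srsf1 and Hnrnpk stopped 319 and 469 bp short of the end of the gene record and covered a listed start site farther inside. All other member peaks overlapped the end itself.

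Over all protein-coding promoters, TCTCGCGA occurred in 5.81% of the 2529 with a gene-end peak and in 0.802% of the 14963 without, and CCGGAAG in 24.9% and 9.72%. Both words contain CG, and no test was made. Among the splicing factor genes TCTCGCGA occurred at Srsf10 and Hnrnph3, which carried a peak, and at Lsm14a, Srsf4 and Snrpg, which did not. These counts, 2 of 28 and 3 of 40 promoters, are too small to show whether the word goes with the peaks there.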
